A study of Mus musculus with 2 samples.

Results

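RNF and MARCH genes encode RING-type ubiquitin ligases, and their siRNA insert signals were followed in a survival screen of mouse neural stem cells. Members were chosen by name alone. A probe set was taken when the array annotation gave it 1 gene symbol, made of Rnf and a number or of March or Marchf and a number. This gave 86 genes (75 RNF and 11 MARCH) of 18193 genes, read by 192 of 45037 probe sets. Each gene was represented by the probe set with the highest log2 signal averaged over the arrays, and its other probe sets were read beside it. The symbols Rnf113a1, Rnf113a2, Rnf138rt1, Rnft1 and Rnft2 did not match this form, and the largest difference among these 5 genes was −0.68, at Rnf113a2.

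The screen asked which siRNAs are found in neural stem cells that live through DNA damage. MNNG survivors were ANSO4E mouse neural stem cells infected with a lentiviral siRNA library, exposed to 500 µM MNNG (an agent that alkylates DNA) for 15 min, regrown and, per the methods, exposed again. Reference control cells were ANSO4E cells infected with the same library and not treated with MNNG. ANSO4E comes from a transgenic mouse of mixed background (C57BL/6JxSJL/JF1 oocytes, BDF1 sperm), so both conditions share that transgene, the line and the library. The inserts were recovered by PCR, labeled with biotin and read on Affymetrix mouse genome arrays, with 1 array per condition. No test between the conditions was possible, and each difference below is the log2 signal of the survivor array minus that of the reference control array, without error. A signal pools all inserts that hybridize to a probe set, so more cells with an insert and more copies recovered per cell cannot be told apart.

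In ubiquitination, an E1 enzyme activates ubiquitin, an E2 enzyme carries it, and an E3 ligase brings the E2 to a substrate. RING ligases bind the E2 through a zinc-binding RING domain and let the ubiquitin pass directly to the substrate, whereas RING-between-RING ligases first take it onto a cysteine of their own. MARCH proteins carry a variant called RING-CH and mostly sit in membranes, where they mark membrane proteins for removal. At DNA breaks, RNF8 and RNF168 build ubiquitin chains on chromatin that bring in repair proteins.

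The arrays differed as wholes. The 99th percentile of all probe sets was 2.68 in survivors and 4.11 in the reference control, and 58 probe sets in survivors, against 301 in the reference control, lay above a log2 signal of 5. The hybridization controls, which are transcripts added in the laboratory, went the other way: 18 of 18 were higher in survivors, by a median of 2.77. Of 8 neural stem cell markers 7 were read, at 0.03 to 1.59 in survivors and 0.43 to 1.26 in the reference control, around the medians of all genes (0.90 in survivors and 0.85 in the reference control) but spread to both sides of them. The signals come from inserts and do not report the expression of these markers.

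Most RNF and MARCH genes gave low signals on both arrays, with a few large differences, most of them lower in survivors. The median log2 signal over the 86 genes was 0.94 in survivors and 0.94 in the reference control, and 82 genes in survivors and 77 genes in the reference control lay below 2. Low signals were likewise the rule over all 18193 genes, of which 17250 in survivors and 16990 in the reference control lay below 2. Above 5 lay 1 member in survivors (1.16%) and 2 members in the reference control (2.33%), against 0.231% and 1.1% of all genes. Of the 86 genes, 36 (41.9%) were higher in survivors, 37 (43.0%) were lower and 13 (15.1%) were equal, with a median difference of 0.00. Over all 18193 genes 43.5% were higher, 38.1% lower and 18.3% equal, also with a median of 0.00. The balance of directions in the families was thus near that of all genes.

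**Figure D1:**
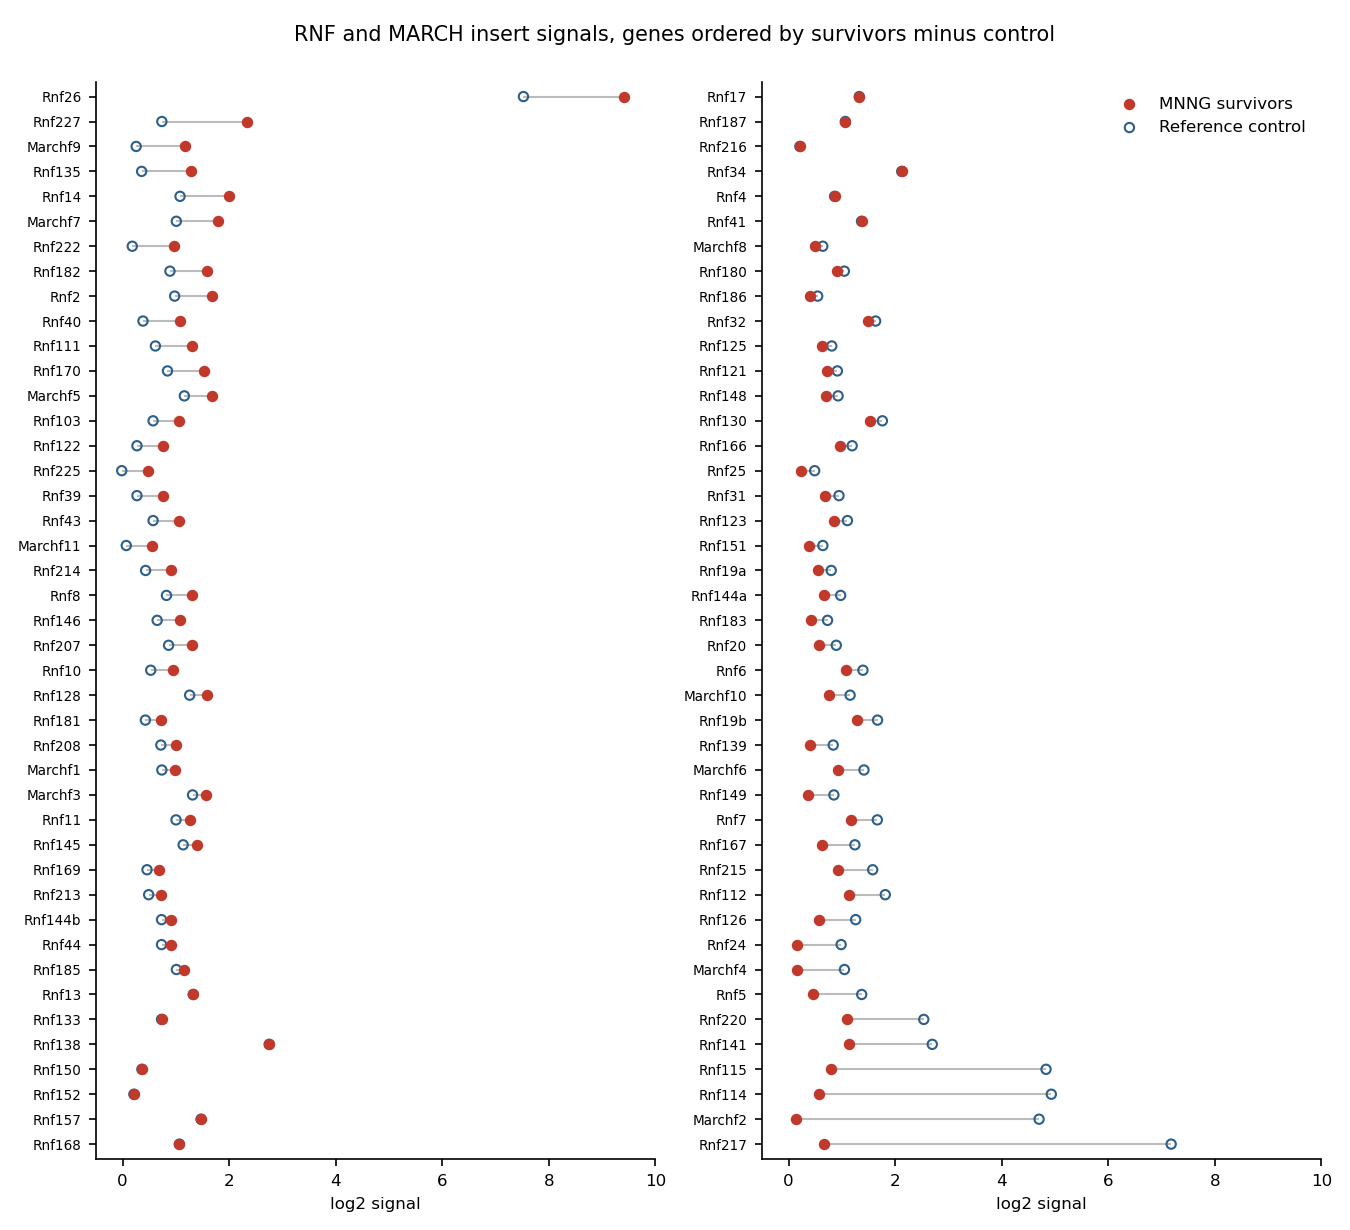
Log2 signal of each RNF and MARCH gene at its probe set of highest mean, with MNNG survivors as filled red points and the reference control as open blue circles, 1 array each. Genes run by survivors minus reference control, from Rnf26 (9.42 and 7.52) at the top left to Rnf217 (0.67 and 7.18) at the bottom right, and most of the other genes lie below 2 on both arrays.

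Past a log2 difference of 2.5, the ratio the methods used, 4 of 86 genes (4.65%) were lower in survivors, against 1.72% of all genes. No member was higher in survivors by over 2.5, against 0.253% of all genes. At a difference of 1, which is a doubling, 6 members (6.98%) were lower, against 5.44% of all genes, and 2 members (2.33%) were higher, against 4.78% of all genes. No member reached the signal of 1000 (log2 9.97) that the methods also required, and few genes of any kind did. Of all 18193 genes, 4 in survivors and 2 in the reference control lay above it.

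The 4 genes lower by over 2.5 were Rnf217, Marchf2, Rnf114 and Rnf115. Rnf217, a RING-between-RING ligase that acts on the iron exporter ferroportin in mice, had a log2 signal of 0.67 in survivors and 7.18 in the reference control, a difference of −6.51. Marchf2, a ligase of endosomes and the secretory pathway, had 0.14 in survivors and 4.70 in the reference control, a difference of −4.56. For Rnf114, a RING protein with further zinc fingers and a ubiquitin-binding motif, the values were 0.57 in survivors and 4.93 in the reference control, a difference of −4.36. Rnf115, a ligase involved in the sorting of growth factor receptors on endosomes, had 0.80 in survivors and 4.83 in the reference control, a difference of −4.03. For all 4 genes the signal lay above 4 in the reference control and below 1 in survivors. Beyond these 4, Rnf141 and Rnf220 were lower in survivors by over 1 and are given with their role groups.

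Rnf26 had the largest difference among the members higher in survivors, from a probe set with high signal on both arrays. This ligase of the endoplasmic reticulum (ER) membrane, which holds endosomes near the nucleus, had a log2 signal of 9.42 in survivors and 7.52 in the reference control, a difference of 1.89. The second probe set of Rnf26 had 0.75 in survivors and 0.89 in the reference control, a difference of −0.14. The high signal and the positive difference of Rnf26 thus rest on 1 probe set, and the difference was 3.25 with quantile normalization and 7.46 with loess. Rnf227 was the other member higher by over 1, with 2.33 in survivors and 0.74 in the reference control, a difference of 1.60, and its second probe set differed by 0.25.

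**Figure D2:**
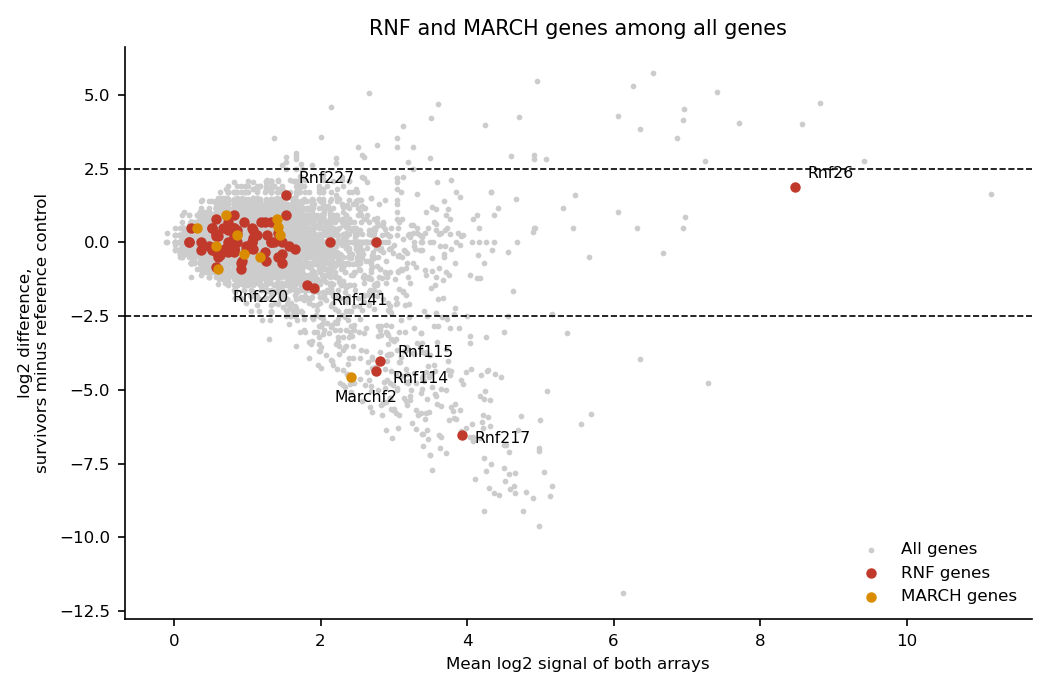
Log2 difference, survivors minus reference control, against the average log2 signal of the pair of arrays for all 18193 genes (grey), RNF genes (red) and MARCH genes (orange), with dashed lines at 2.5 and −2.5. Rnf217, Marchf2, Rnf114 and Rnf115 lie on the falling arm formed by genes that were bright in the reference control, and Rnf26 lies apart at a mean above 8.

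A high signal in the reference control went with these differences, which contain that signal, so that genes chosen for it lean to lower values in survivors. Of 5 members brighter than 4 (log2) in the reference control, 4 were lower in survivors by over 2.5, and the fifth was Rnf26. Over all genes 325 were above 4 in the reference control, 259 of them (79.7%) were lower in survivors by over 2.5 and 22 were higher. Chosen the other way, 84 genes were above 4 in survivors, and 34 of them (40.5%) were higher in survivors by over 2.5.

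The kind of probe set moved with them as well. Affymetrix marks probe sets that hold probes matching other sequences with the ending _x_at, and those that read several transcripts of 1 gene with _a_at. Rnf217, Marchf2 and Rnf114 were read at _x_at probe sets, Rnf115 at an _a_at probe set and Rnf26 at an _x_at probe set. Among the 86 genes 4 (4.65%) were read at an _x_at probe set, and all 4 differed by over 1. Over all genes 235 of the 700 read at an _x_at probe set differed by over 1 in either direction. Over all genes 3.85% were read at such a probe set, but 33.9% of the 313 genes lower by over 2.5 were. In other terms, 15.1% of 700 genes read at an _x_at probe set were lower by over 2.5, against 0.702% of 14663 genes read at a plain _at probe set. Which sequences these probe sets caught was not tested.

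The remaining probe sets of the same genes did not show the large differences, and only for Rnf115 did another pass 1. The 3 other probe sets of Rnf217 differed by 0.23 to 0.49. For Marchf2 the 3 others differed by −0.69, −0.32 and 0.25, and the last of these was also an _x_at probe set. For Rnf114 the 4 others ranged from −0.14 to 0.33. Rnf115 had a second probe set, with 0.57 in survivors and 1.59 in the reference control, a difference of −1.01. Both probe sets of Rnf115 were thus lower by over 1, which held for 16 of the 9010 genes with several probe sets and for no other member. The signals of the second probe set were low, and the absolute size of its difference was shared by 384 probe sets. The 9010 genes have up to 12 probe sets each, and the condition is easier to meet with fewer.

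**Figure D3:**
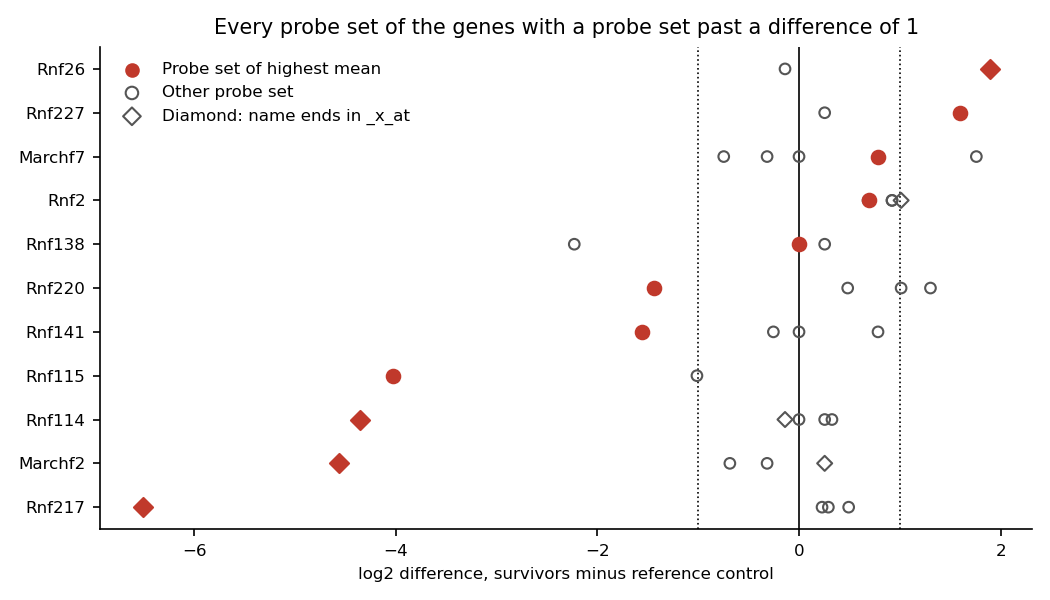
Log2 difference, survivors minus reference control, at every probe set of the 11 genes with a probe set past a difference of 1 (dotted lines). Filled symbols are the probe sets of highest mean, open symbols the others and diamonds those ending in _x_at. For Rnf217, Marchf2 and Rnf114 a single probe set lies below −4 while the others lie within 1 of 0, whereas both probe sets of Rnf115 lie below −1.

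Counted over probe sets, 14 member probe sets of 11 genes passed 1, with 6 higher and 8 lower in survivors. This corresponds to 3.13% and 4.17% of the 192, against 3.75% and 3.93% of all probe sets. Probe sets of the same gene often disagreed. Of 56 members with several probe sets, 33 (58.9%) had differences of both signs, against 47.7% of 9010 genes and 51.6% of 31 TRIM genes, a further family of RING ligases. All probe sets were higher in survivors for Marchf1, Rnf2, Rnf169, Rnf170, Rnf182 and Rnf227, and all were lower for Marchf6, Marchf10, Rnf6, Rnf19b, Rnf24 and Rnf115. These 6 and 6 genes are 10.7% each of the 56, against 12.9% all higher and 8.93% all lower over the 9010 genes, so the shares were near those of all genes.

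In the DNA damage and chromatin group, 6 of 10 genes were higher in survivors, 1 was lower and 3 were equal, with a median difference of 0.33, and none passed 1. Rnf113a1 and Rnf113a2 were also listed for this group but did not match the naming rule, and they differed by 0.29 and −0.68. Rnf2, the catalytic ligase of Polycomb repressive complex 1 that ubiquitinates histone H2A, had 1.67 in survivors and 0.98 in the reference control, a difference of 0.70. Its 5 probe sets differed by 0.68, 0.70, 0.92, 0.92 and 1.01. They spanned 1.07 to 1.67 in survivors and 0.14 to 0.98 in the reference control. These are low signals, and probe sets of 1 gene are not replicates of a condition. Each of the 5 differences had an absolute size shared by 384 to 1763 probe sets. Of 856 genes with at least 5 probe sets, 11 had all of them higher in survivors, Rnf2 among them, and 7 had all of them lower. Rnf40, which ubiquitinates histone H2B together with Rnf20, had 1.08 in survivors and 0.38 in the reference control, a difference of 0.70. Rnf20, its partner, differed by −0.32 at its probe set of highest mean and by 0.29 to 0.78 at 3 others. The direction of Rnf20 therefore depended on the probe set.

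Rnf111, a ligase of TGF-β signaling that recognizes proteins carrying SUMO, had 1.30 in survivors and 0.62 in the reference control, a difference of 0.68. Rnf8, which starts ubiquitination at DNA breaks, differed by 0.48, and Rnf168, which extends it, was equal at 1.07 on both arrays. Rnf169, which limits repair protein binding to those chains, differed by 0.23 and 0.18 at its 2 probe sets. Rnf146, a ligase that is switched on by poly(ADP-ribose), the polymer made in MNNG-treated cells, differed by 0.43 at its main probe set and by −0.43 and −0.68 at the others. Rnf138, which acts in the resection of DNA ends, was equal at 2.75 on both arrays, while another of its probe sets had 0.21 in survivors and 2.44 in the reference control, a difference of −2.23.

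RING-between-RING ligases were lower in survivors for 5 of 8 genes, higher for 2 and equal for 1, with a median of −0.25. Besides Rnf217, the largest differences were at Rnf14 and Rnf19b. Rnf14, a coactivator of the androgen receptor, had 1.99 in survivors and 1.08 in the reference control, a difference of 0.91, and its other probe sets ranged from −0.43 to 0.23. Rnf19b, a ligase of natural killer cell killing, had 1.28 in survivors and 1.67 in the reference control, a difference of −0.39, with −0.37 at its second probe set. Rnf31, which makes linear ubiquitin chains, had 0.69 in survivors and 0.95 in the reference control.

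Protease-associated transmembrane ligases, which carry a lumenal protease-associated domain, showed no difference past 1 in 10 genes, with 2 higher, 5 lower, 3 equal and a median of −0.11. The largest were Rnf215 with 0.94 in survivors and 1.58 in the reference control (−0.64), Rnf167, a ligase of endosomes and lysosomes, with 0.62 in survivors and 1.24 in the reference control (−0.62), and Rnf149 with 0.36 in survivors and 0.85 in the reference control (−0.49). Rnf43, which removes Wnt receptors from the cell surface, lay on the other side at 0.49. All differences in this group were thus small.

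Among the 15 other membrane ligases of the ER and endosomes, 7 were higher and 7 lower in survivors and 1 was equal, with a median of 0.00. After Rnf26 came Rnf5, which takes part in ER-associated degradation, with 0.46 in survivors and 1.37 in the reference control (−0.91). Rnf24 had 0.16 in survivors and 0.99 in the reference control (−0.83) and −0.39 at its second probe set. Rnf182 and Rnf170, of which Rnf170 degrades activated IP3 receptors, differed by 0.70 and 0.68 and were higher at each of their probe sets.

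The immune, death receptor and growth factor group held 2 of the 4 largest decreases, Rnf114 and Rnf115, and otherwise stayed within 1. Of its 10 genes 3 were higher, 5 lower and 2 equal, with a median of −0.09. Rnf135, which activates the RNA sensor RIG-I, had 1.28 in survivors and 0.36 in the reference control, a difference of 0.92. Rnf126, the close relative of Rnf115, had 0.57 in survivors and 1.26 in the reference control, a difference of −0.69. Rnf115 and Rnf126 were both lower in survivors, but by amounts that lay far apart.

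In the neural, developmental and cell cycle group 9 of 10 listed genes were measured, with 2 higher, 5 lower, 2 equal and a median of −0.25. Rnf220, a ligase of Wnt and Hedgehog signaling in the developing nervous system, had 1.09 in survivors and 2.54 in the reference control, a difference of −1.44. Its 3 other probe sets went the other way, by 0.48, 1.01 and 1.30, so the gene has no common direction. Rnf112, a neural RING protein, had 1.13 in survivors and 1.81 in the reference control (−0.68). Rnf7, the RING subunit of a cullin ligase, differed by −0.49 at its main probe set and by 0.79 at the other.

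Germ cell ligases were lower in survivors for 3 of 4 measured genes and equal for 1, with a median of −0.20. Rnf141, expressed in testis, had 1.14 in survivors and 2.70 in the reference control, a difference of −1.56, and its other probe sets ranged from −0.25 to 0.78. Rnf151, which acts in acrosome formation, and Rnf32 differed by −0.25 and −0.14. Of 9 RNF genes placed in no role group, 8 were higher and 1, Rnf25, was lower, with a median of 0.48. They included Rnf227 and also Rnf222, with 0.97 in survivors and 0.18 in the reference control (0.78). This group is defined by what is left over and has no shared role.

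**Figure D4:**
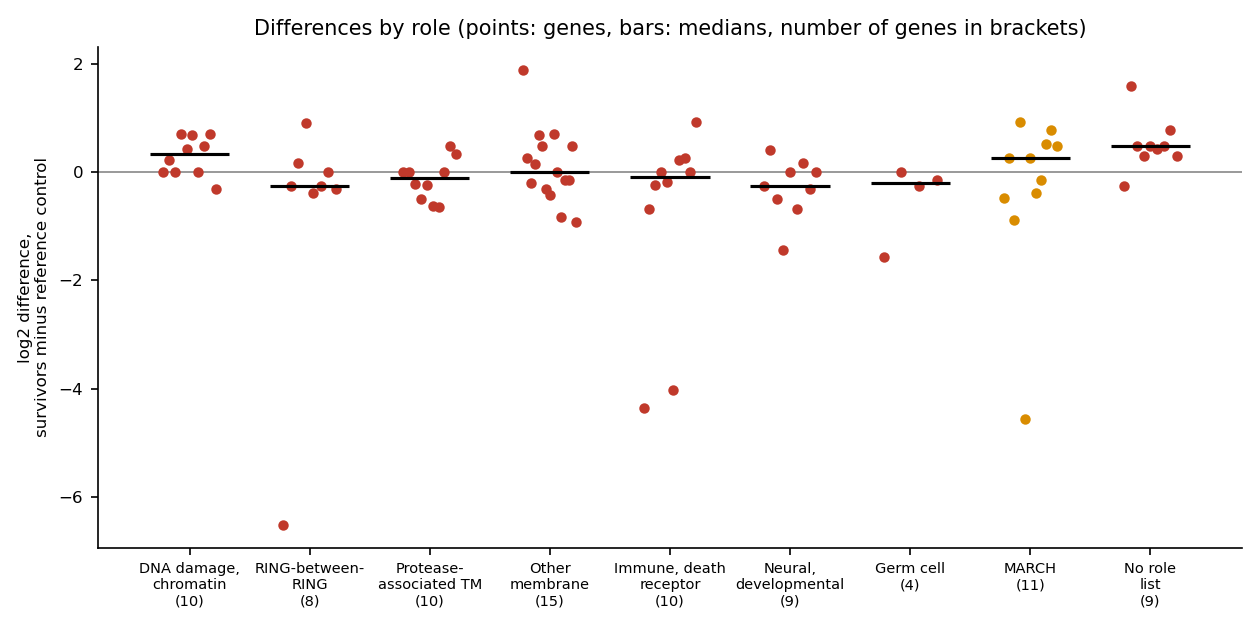
Log2 difference, survivors minus reference control, of each RNF gene (red) and MARCH gene (orange) by role, with bars at the group medians and numbers of genes in brackets. Group medians lie between −0.25 and 0.48, and the 4 points below −4 belong to the RING-between-RING, immune and MARCH groups.

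Rnf25 and Marchf1 are the members that the study takes up, Marchf1 in its list of screen genes and Rnf25 from a network prediction. Rnf25, a ligase that binds the NF-κB subunit RelA, had 0.24 in survivors and 0.49 in the reference control, a difference of −0.25. Its second probe set was equal at 0.36 on both arrays. Rnf25 stood at rank 52 of the 75 RNF genes by difference, tied with Rnf31.

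Marchf1, which removes MHC class II and CD86 from antigen-presenting cells, had 0.99 in survivors and 0.74 in the reference control, a difference of 0.25. The 2 other probe sets had 0.95 in survivors and 0.26 in the reference control (0.68), and 0.85 in survivors and 0.36 in the reference control (0.48). The value of 0.99 is from the probe set of the transcript under which the study lists the gene. All 3 probe sets of Marchf1 were higher in survivors, but in these deposited values all lay below a log2 signal of 1 on both arrays. None came near the screen's thresholds of 2.5 and 1000. Few genes of any kind passed these in the deposited values. Of 18193 genes, 46 were higher in survivors by over 2.5, and 4 lay above 1000 in survivors. Marchf1 stood at rank 6 of 11 MARCH genes by difference.

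Of the 11 MARCH genes 6 were higher and 5 lower in survivors. Their median was 0.25, but −0.14 when each gene was read at its probe set of lowest mean, at that of highest control signal or at the median of its probe sets. Marchf9, which acts on MHC class I in human cells, had 1.18 in survivors and 0.26 in the reference control, a difference of 0.92. Its second probe set was equal at 0.23 on both arrays. Marchf7 had 1.79 in survivors and 1.01 in the reference control, a difference of 0.78, and its other 4 probe sets ranged from −0.75 to 1.76. Marchf5, the ligase of the mitochondrial outer membrane, differed by 0.52. The MARCH genes higher in survivors thus all stayed below 1 at their main probe set. On the lower side, Marchf4 had 0.16 in survivors and 1.05 in the reference control (−0.89). Marchf6, a ligase of ER-associated degradation, differed by −0.48 and −0.39 at its 2 probe sets, and Marchf10 by −0.39 at both. Marchf8, which acts on MHC class II like Marchf1, differed by −0.14.

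Small differences were shared by many genes, and near the floor of the arrays they took few values. The 45037 probe sets had 856 distinct absolute differences at 4 decimals, and 173 of the 192 member probe sets (90.1%) shared theirs with at least 100 probe sets, against 92.4% of all probe sets. The difference of 0.25 at Marchf1 was that of 3708 probe sets, the commonest value after 0, and the difference at Rnf25 was that of 66. Equal values were found at 30 member probe sets (15.6%) and at 19.4% of all probe sets, and 71.4% of member probe sets and 73.9% of all lay within 0.5 of 0.

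**Figure D5:**
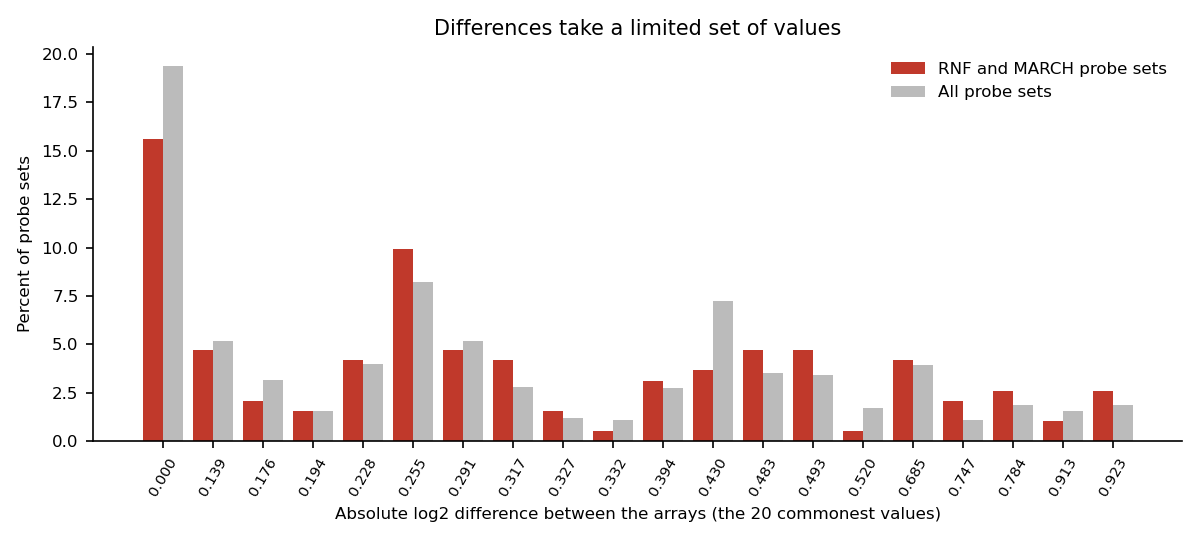
Percent of RNF and MARCH probe sets (red, 192) and of all probe sets (grey, 45037) at each of the commonest absolute log2 differences between the arrays. A difference of 0 is held by 15.6% and 19.4%, and the step of 0.25 that includes Marchf1 by 9.90% and 8.23%.

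Ligases act with E2 enzymes and with readers of their chains, and inserts for these partners were read in the same way. Of 29 measured ubiquitin, E1 and E2 genes of 37 listed, 14 were higher and 8 lower in survivors (median 0.00). The E2 gene Ube2h had 0.70 in survivors and 2.14 in the reference control (−1.44), with another of its probe sets at 0.78, and the E2 genes Ube2q1 and Ube2q2 differed by 0.92 and −0.75. Of 12 measured partners of linear ubiquitin and inhibitor of apoptosis ligases, 6 were higher in survivors and 2 lower (median 0.09). Ikbkg, the subunit of the IκB kinase complex that binds linear chains, had 1.59 in survivors and 3.59 in the reference control (−2.01). The 6 probe sets of Ikbkg ranged from −2.01 to 0.29. Otulin, which cuts linear chains, and Sharpin, a subunit of the ligase that makes them, differed by 0.68 and 0.59.

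Partners of the RNF8-RNF168 and RNF20-RNF40 pathways were lower in survivors for 12 of 21 genes (57.1%) and higher for 6 (28.6%). Over all genes these shares were 38.1% and 43.5%. The median was −0.23 for these partners and 0.33 for the ligases of the DNA damage group. Both medians are small differences at low signals, and several of these partners had probe sets of both signs. The partner median was not followed under other processing. Paxip1, which binds phosphorylated 53BP1 at breaks, had 1.16 in survivors and 7.25 in the reference control, a difference of −6.09, and its 4 probe sets ranged from −6.09 to −0.14. Rif1, another effector of 53BP1, and Trp53bp1, the gene of 53BP1, differed by −1.60 and −1.56. Both had other probe sets that were higher in survivors, at up to 0.25 for Rif1 and 0.48 for Trp53bp1. The TRIM family, read in the same way, had 28 of 58 genes higher and 21 lower with a median of 0.00. By over 1, 5 TRIM genes (8.62%) were higher and 1 (1.72%) was lower, against 4.78% and 5.44% of all genes. None of the TRIM genes passed 2.5 in either direction, against 0.253% of all genes higher and 1.72% lower by that much.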

How the data were processed

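Members and lists were chosen with earlier results of these data known. Log2 signals per probe set were deposited, and the submitters' processing notes name RMA, whose version is not given in the sources used here, while the methods name quantile normalization. The distributions of the arrays differ as deposited. The methods name RNA, and the labels genomic DNA, as the template of the inserts. The difference between the arrays was computed with Python 3.11.15 and pandas 2.3.3 after 64 control probe sets were set aside. Gene names came from the array annotation, which gave 34945 probe sets 1 symbol, 932 several and 9160 none, and all 192 member probe sets were checked by gene ID. Where probe sets tied for the highest mean (Rnf4, Rnf139, Rnf225), the lower probe set number was used. Genes named were Marchf1, Rnf25, members past 2.5 or above a log2 signal of 5, the 12 largest increases and the 12 largest decreases, and the 3 largest differences of each role group and partner list. Others named (such as Rnf8, Rnf20, Rnf31, Rnf43, Rnf138, Rnf146, Rnf168, Rnf169 and further MARCH genes) were added after their values were seen, for their roles. With 1 array per condition there was no test, and precision is limited by the number of arrays. The counting was checked on simulated data. Protein, probe and siRNA sequences were not analysed here, and the planned search of proteins for RING patterns was not run.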

Additional observations from a re-analysis of the deposited data

Results flagged for a closer look

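The hybridization control probe sets, which no comparison of the RNF and MARCH genes used, had a median log2 difference of 2.77, with all 18 higher in survivors (0.08 to 3.86). Their median signal was 11.7 in survivors and 8.91 in the reference control. Scaling the arrays to these controls would lower every RNF and MARCH gene by 2.77, while the medians of all genes in the deposited values are 0.90 in survivors and 0.85 in the reference control. Which of these levels the arrays should share was not tested.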

How the results depend on the processing

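With 1 array per condition, signals near the floor and no spread between replicates, a difference at a single probe set has no error, and the choice of probe set mattered most. No paired analysis was possible because each condition has 1 array. Median centering and a floor at the 25th percentile kept all differences of genes named by rule and all RNF role medians within 0.45, the scaled median absolute deviation of all differences. Over 10 alternatives, 364 of 480 such values stayed within 0.45. In 45 the sign turned, 17 of them with centering on the hybridization controls, 27 with another choice of probe set and 1 (Rnf25, 0.02) with the floor.

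The 2 members higher by over 1 became 4 with quantile normalization and at the probe set of highest survivor signal, 1 without _x_at and _s_at probe sets, and 0 with centering on the hybridization controls, at the probe set of lowest mean, at the median over probe sets and at thresholds of 2 and 3. Over all 18193 genes, 869 were higher by over 1 as deposited. This became 1062 with quantile normalization, 1131 at the probe set of highest survivor signal and 819 of 17903 without _x_at and _s_at probe sets. It became 18 with the hybridization controls, 475 at the probe set of lowest mean and 388 at the median over probe sets. Higher by over 2.5 was 1 member, not 0, with quantile normalization and loess (Rnf26, 3.25 and 7.46). Over all genes the 46 higher by over 2.5 became 147 and 85 with these. The 6 lower by over 1 became 3 without _x_at and _s_at probe sets, 1 at the probe set of lowest mean, at that of highest survivor signal and at the median over probe sets, and 85 with the hybridization controls. Over all genes the 990 lower by over 1 became 780 of 17903, 336, 539, 371 and 18061 in the same order. The 4 members lower by over 2.5 became 1, 0, 1, 1 and 59 in that order. Over all genes the 313 lower by over 2.5 became 188 of 17903, 26, 115, 61 and 12227. The 85 and 59 members thus moved together with most genes. Centered on the hybridization controls, the median was −2.77 over members and −2.51 over MARCH genes, with Rnf26 at −0.88 and Rnf227 at −1.17.

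Signs turned with the probe set, and the MARCH median was −0.14 at the probe set of lowest mean, at that of highest control signal and at the median over probe sets. At that of lowest mean Rnf217 was 0.29, Marchf2 0.25, Rnf114 0.25, Rnf220 0.48, Rnf26 −0.14, Marchf7 −0.75, Rnf7 0.79, Rnf32 0.43, Rif1 0.25, Ube2h 0.68 and the germ cell median 0.13. At that of highest survivor signal Rnf217 was 0.23, Rnf114 0.33, Rnf141 0.78, Rnf220 1.30, Rnf7 0.79, Trp53bp1 0.43 and the immune group's median 0.11. At that of highest control signal Marchf7 was −0.32. At the median over probe sets Rnf217 was 0.26, Rnf220 0.75, Rnf7 0.15, Ube2h 0.22 and the immune group's median 0.01. Without _x_at and _s_at probe sets Rnf217 was 0.23, Rnf114 0.33 and Rnf26 −0.14. Rnf115 kept its direction under all 10, but with both of its probe sets lower no choice of probe set could turn it. Rnf24, also lower at each probe set, and Marchf4 and Rnf5, with 1 probe set each, kept theirs as well.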

Other observations

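Several genes, not all of them RING ligases, once carried an Rnf number and now have other symbols, so that the naming rule leaves them out. Of 25 such genes 13 were higher in survivors, 7 lower and 5 equal, with a median log2 difference of 0.18. Without the TRIM genes among them, which the TRIM family above also counts, 9 of 14 were higher, 4 lower and 1 equal (median 0.27). Neurl1a, a relative of the Drosophila Notch pathway ligase neuralized, had 2.12 in survivors and 0.82 in the reference control (1.30), and its 6 probe sets ranged from −0.49 to 1.30. Trim8 had 1.32 in survivors and 0.30 in the reference control (1.02), with probe sets from −0.43 to 1.02. Obi1, a ligase of replication origins, and Bfar, an ER membrane regulator of cell death, both differed by 0.92. Their lowest probe sets differed by −0.48 for Obi1 and −0.14 for Bfar. Rlim, the ligase that controls X inactivation in mice, had 1.24 in survivors and 2.16 in the reference control (−0.92), with probe sets from −0.92 to 1.23. None of the 25 was lower by over 1, against 5.44% of all genes, and 2 were higher by over 1, against 4.78%. These genes were found through their synonyms after the values of the families were known.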
